A study of Mus musculus with 18 samples.

Results

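This report compares the transcriptomes of iHoxc8 and iHoxc10 neurons, mouse neurons that were forced to express either the central Hox gene Hoxc8 or the posterior Hox gene Hoxc10. The libraries were chosen by their labels alone, 3 of iHoxc8 and 3 of iHoxc10 neurons, so they are 6 of the 18 RNA-seq libraries of the series. Both sets of neurons were made from Ainv15 mouse embryonic stem cells, in which a Flag-tagged Hox transgene sits in the Hprt locus on the X chromosome and is switched on by doxycycline. Cells were grown as embryoid bodies with 1 µM retinoic acid and 0.5 µM of the Hedgehog agonist SAG, received doxycycline at 3 µg/ml from day 2 for 48 hours, and were collected at day 4. Control neurons, used here for reference and for differences from control of some genes, carried the Hoxc6 transgene and received no doxycycline, whereas both groups compared here received it. Each Hox gene was represented by 1 engineered line, and each embryoid body culture held motor neurons, interneurons and remaining progenitors, so that a lower value in these bulk samples can mean fewer cells of a type or less RNA per cell, which cannot be told apart. The study describes the replicates as independent differentiations.

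Hox genes encode homeodomain transcription factors that give cells their position along the head-to-tail axis, and they are arranged in 4 clusters in an order that matches where they are expressed. In the spinal cord, central paralogs such as Hoxc6 and Hoxc8 act at the level of the forelimb, and Hox10 paralogs act at the level of the hindlimb. Motor neurons of the lateral motor column (LMC), which innervate limb muscle, form at both of these levels and are marked by Foxp1 and Aldh1a2. Central Hox proteins favour DNA with a TAAT core, and posterior Hox proteins favour TTAT cores. The comparison of iHoxc8 with iHoxc10 neurons therefore asks how far 2 Hox genes that share a link to limb-innervating neurons lead to the same expressed genes.

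Total counts were 31081168 to 32670273 per library in iHoxc8 and 26208886 to 28346760 in iHoxc10 neurons, so that 3 counts correspond to 0.0887 to 0.122 CPM (the count scaled to the TMM-adjusted size of the library). Correlations of log2 CPM between libraries of a group were 0.993 to 0.999. In iHoxc8 neurons, replicate 2 stood apart from the others, with a chi-square per degree of freedom of 59.4 and 75.4 against replicates 1 and 3, which gave 7.33 between themselves. In iHoxc10 neurons, replicate 3 stood somewhat apart, with 33.8 and 24 against 13.3 between replicates 1 and 2. The iHoxc8 libraries had a sequencing run of their own, whereas the iHoxc10 libraries shared a run with iHoxc9 neurons. The run, the engineered line and the induced Hox gene thus cannot be separated from each other here and cannot be told apart. Control libraries were in another run, shared with iHoxc6 neurons. In differences from control, the run, the line and doxycycline likewise cannot be told apart from the induced Hox gene. For many named genes the difference between iHoxc10 and iHoxc9 neurons, which shared a run, is given beside that between iHoxc10 and iHoxc8. That comparison uses the same iHoxc10 libraries and is no independent repeat. Neuronal genes were high in all 6 libraries, with Tubb3, a neuronal tubulin, at 2861 to 4497 CPM, and the pluripotency gene Nanog had no count in any of them. Motor neuron markers were present as well, including Isl1 at 120.1 to 157.3 CPM and Slc18a3, the vesicular acetylcholine transporter, at 163.5 to 300.0 CPM.

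Each line expressed its own Hox gene, and the other was at or near 0. Hoxc8 was at 397.5, 409.9 and 361.0 CPM in the 3 iHoxc8 libraries and at 0.350, 0.287 and 0.162 CPM in the 3 iHoxc10 libraries. Hoxc10 had no count in any iHoxc8 library and was at 432.1, 425.3 and 433.0 CPM in iHoxc10 neurons, which is at least 4560-fold higher when 3 counts are taken as the limit in each iHoxc8 library. Both genes thus separate the groups without overlap, as the labels state. The induced genes themselves were at similar levels, with Hoxc10 1.1 times the level of Hoxc8 in CPM. This difference was 0.15 on the log2(CPM + 1) scale (exact two-sided permutation test over libraries, p = 0.1, the smallest that 3 against 3 allows). Per kilobase of annotated exon, at 1909 bases for Hoxc10 and 2832 bases for Hoxc8, the ratio was 1.64. Reads from the transgene and from the endogenous gene cannot be told apart, and which untranslated parts the transgene carries is not given in the sources used here.

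Across all genes, a gene was called where its adjusted p was under 0.01 and its log2 fold change beyond 2 in either direction (edgeR's quasi-likelihood test with Benjamini-Hochberg adjustment, all 18 libraries in the fit). Fold changes are given as iHoxc10 over iHoxc8, so that a positive value is higher in iHoxc10. Of 20944 genes tested, 80 were called higher in iHoxc10 (0.382%) and 57 higher in iHoxc8 (0.272%), which makes 137 in all (0.654%). Without the threshold on the fold change, 350 genes passed in the direction of iHoxc10 (1.67%) and 264 in that of iHoxc8 (1.26%), together 614 (2.93%). The number of genes past adjusted p alone was the less stable, with 401, 363, 319 and 365 genes when iHoxc8 replicate 1, iHoxc8 replicate 3, iHoxc10 replicate 1 or iHoxc10 replicate 2 was left out. All 137 called genes had groups that did not overlap, which was so for 25.8% of all genes tested. Of the called genes, 105 reached a mean of 1 CPM in either group, and 37 reached 10 CPM, of which 20 were higher in iHoxc10 and 17 in iHoxc8. The median log2 fold change over all genes was -0.02. In the plot of all genes, most called genes lie at the left, at low levels, and the 2 induced genes lie far from the rest.

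**Figure D1:**
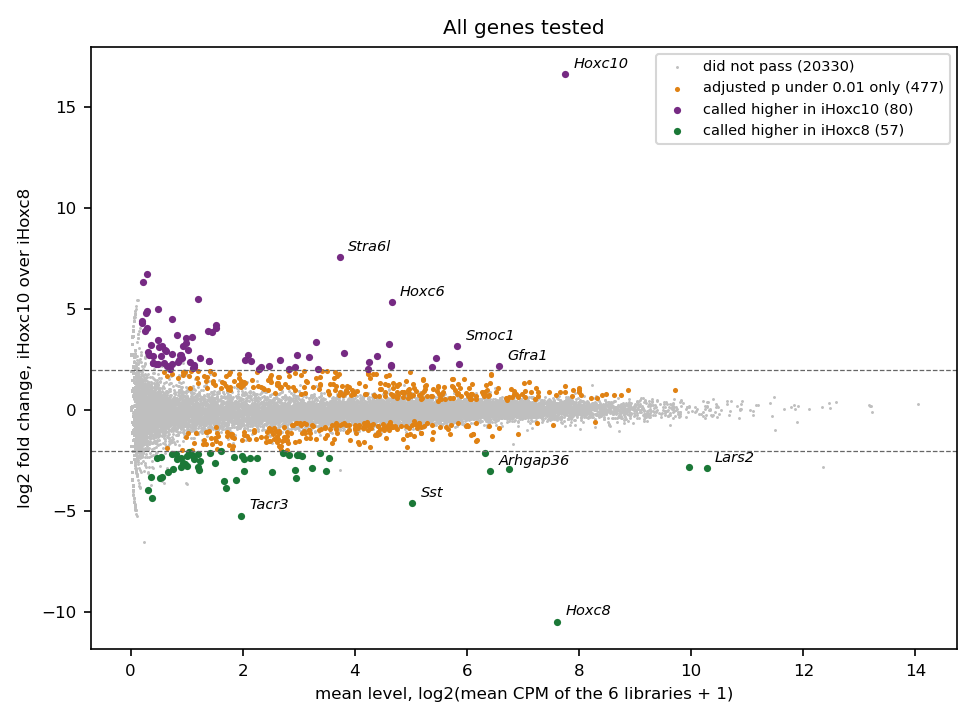
Each point is a gene, with the log2 of its mean CPM over the 6 libraries plus 1 on the horizontal axis and the log2 fold change of iHoxc10 over iHoxc8 neurons on the vertical axis, and dashed lines at a log2 fold change of 2 in either direction. Purple points are the 80 genes called higher in iHoxc10, green points the 57 called higher in iHoxc8, orange points passed adjusted p alone, and Hoxc10 and Hoxc8 lie farthest from 0.

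Besides the induced genes, several Hox genes of the central group were higher in iHoxc10 neurons. Of the 8 central genes (Hox6 to Hox8), 4 were called higher in iHoxc10 (Hoxc6, Hoxd8, Hoxa7 and Hoxa6) and Hoxc8 itself was called higher in iHoxc8, against the 0.382% and 0.272% over all genes. Hoxc6 (chromosome 15, 102998226 to 103011882, mm10) was at 1.57, 0.735 and 1.16 CPM in iHoxc8 and at 49.4, 49.4 and 43.1 CPM in iHoxc10 neurons. Its 3 iHoxc10 libraries lay far above all iHoxc8 libraries (log2 fold change 5.34, standard error 0.29, adjusted p = 2.89e-11). The control mean was 3.18 CPM, and the log2 fold change of iHoxc10 over iHoxc9 within their run was 4.46 (adjusted p = 1.44e-10). Hoxc6 lies beside Hoxc8 in the HoxC cluster and shares none of its exon bases with other annotated genes, and the sources used here do not state which strand was counted.

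Hoxd8 was at 0.266, 0.200 and 0.156 CPM in iHoxc8 and at 4.03, 3.69 and 2.88 CPM in iHoxc10 neurons (log2 fold change 4.06, standard error 0.38, adjusted p = 2.38e-07). Within the run, its iHoxc10 over iHoxc9 value was 1.49 (adjusted p = 0.00227). Hoxa7 was at 0.0296, 0.200 and 0.0938 CPM in iHoxc8, where it had at most 6 counts, and at 1.65, 1.29 and 1.38 CPM in iHoxc10. The log2 fold change of Hoxa7 was 3.72 (adjusted p = 4.15e-06), that over iHoxc9 was 0.66 (adjusted p = 0.268), and 20.4% of its exon bases also lie in exons of other genes. Hoxa7 also differed from control in iHoxc8, where it was lower by a log2 fold change of -2.92 (adjusted p = 0.000475), and in iHoxc10 its difference from control did not pass (0.80, adjusted p = 0.0749). Hoxa6 was at 1.89, 1.302 and 1.72 CPM in iHoxc8 and at 8.93, 11.6 and 6.56 CPM in iHoxc10 (log2 fold change 2.46, adjusted p = 0.000192), and its value over iHoxc9 was 2.58. Mira, an RNA gene of the HoxA cluster between Hoxa6 and Hoxa7, was at 0.0334 to 0.266 CPM in iHoxc8 and 1.74 to 2.29 CPM in iHoxc10 (log2 fold change 3.63, adjusted p = 2.01e-06). In each of these 4 genes all iHoxc10 libraries lay above all iHoxc8 libraries, at no more than 11.6 CPM.

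Promoter sequences of the central Hox genes Hoxa6, Hoxa7 and Hoxd8, and of Stra6l, the most changed gene outside the clusters, are shown here because posterior Hox proteins favour TTAT cores. Hoxc6 had no entry in the promoter set used. They come from RefSeq on GRCm38.p6, are written 5′ to 3′ on the strand of the gene, lie within the 250 bases upstream of an annotated start, and were shortened where an annotated exon overlapped. Capitals mark TTTAT on either strand.

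Hoxa6, chr6:52208723-52208922, minus strand: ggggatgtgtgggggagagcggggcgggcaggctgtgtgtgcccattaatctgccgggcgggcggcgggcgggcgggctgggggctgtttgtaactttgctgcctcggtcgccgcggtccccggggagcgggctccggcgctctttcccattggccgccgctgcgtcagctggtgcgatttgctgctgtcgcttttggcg

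Hoxa7, chr6:52218712-52218823, minus strand: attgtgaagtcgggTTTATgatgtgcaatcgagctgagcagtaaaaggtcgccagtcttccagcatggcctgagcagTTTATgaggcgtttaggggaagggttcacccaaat

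Hoxd8, chr2:74704365-74704614, plus strand: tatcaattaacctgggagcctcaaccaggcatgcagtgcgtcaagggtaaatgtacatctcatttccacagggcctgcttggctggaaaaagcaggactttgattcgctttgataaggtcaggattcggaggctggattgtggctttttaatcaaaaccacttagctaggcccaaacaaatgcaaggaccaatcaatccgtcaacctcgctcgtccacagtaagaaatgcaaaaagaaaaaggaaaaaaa

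Stra6l, chr4:45848566-45848663, plus strand: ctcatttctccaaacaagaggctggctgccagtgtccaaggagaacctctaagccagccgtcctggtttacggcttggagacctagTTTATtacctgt

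The Hoxa7 stretch holds TTTAT 2 times and the Stra6l stretch 1 time, whereas TTTAT does not occur in the stretches of Hoxa6 and Hoxd8. The shorter core TTAT was not marked or counted, and its reverse complement occurs in the Hoxd8 stretch. The Stra6l stretch lies inside the span of the gene (45824293 to 45887010), not upstream of it. It belongs to 1 of 2 annotated starts and ends 152 bases before that start. TTTAT on either strand, which is part of the longer motif TGATTTAT and whose reverse complement is part of the TATA box, occurred in 27.4% of 18448 promoter windows of 250 bases. It occurred in 37.3% of 67 windows, from 58 genes, of genes higher in iHoxc10 and in 27.8% of 54 windows, from 39 genes, of genes higher in iHoxc8. These shares were not tested against each other. TAAT occurred in 43.7% of all windows and in 53.7% of both sets. TGATTTAT occurred in 0.515% of all windows, in 1.49% of the first set and in 0% of the second. A match describes letters and no bound site. The study reports that the great majority of Hox binding sites lay far from transcription start sites, and binding near these genes was not examined here.

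Anterior Hox genes had small fold changes, from -0.59 to 0.56 on the log2 scale. None of the 15 genes of the Hox1 to Hox5 groups passed in either direction by edgeR, 7 had an unadjusted p under 0.05 (5 higher in iHoxc10), and DESeq2 passed 3. Their median log2 fold change was 0.11. Hoxb5 was at 302.0, 372.0 and 318.2 CPM in iHoxc8 and at 325.9, 391.8 and 576.9 CPM in iHoxc10, where the groups overlapped. Hoxc5, next to Hoxc6, was at 81.5, 100.2 and 75.1 CPM in iHoxc8 and at 55.1, 60.7 and 62.6 CPM in iHoxc10, where control had a mean of 195.6 CPM (log2 fold change -0.53, adjusted p = 0.0378). Of the 16 posterior genes (Hox9 to Hox13), 9 could be tested. Hoxb9 was higher in iHoxc10, at 8.67 to 10.6 CPM against 2.20 to 3.64 CPM (log2 fold change 1.67, adjusted p = 0.0015), but did not pass without iHoxc8 replicate 2 (adjusted p up to 0.025). The control mean of Hoxb9 was 9.37 CPM. Its log2 fold change from control was -1.68 in iHoxc8 (adjusted p = 0.00281) and -0.01 in iHoxc10. Hoxc9 was at most at 0.0334 CPM in iHoxc8 and 0.0810 CPM in iHoxc10, under the limit of 3 counts, and Hoxa9, Hoxc11 and Hoxd10 had no count in any of the 6 libraries. Among 11 genes of the Meis and Pbx families and their relatives, whose proteins bind DNA together with Hox proteins, Pbx3 and Meis2 were higher in iHoxc10 (1.67% of all genes). Pbx3 was at 141.9, 117.1 and 127.0 CPM in iHoxc8 and at 346.9, 285.6 and 265.2 CPM in iHoxc10 (log2 fold change 1.22, standard error 0.14, adjusted p = 4.93e-06). Meis2 was at 147.9 to 201.5 CPM in iHoxc8 and 293.5 to 371.4 CPM in iHoxc10 (log2 fold change 0.88, adjusted p = 0.00045).

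**Figure D2:**
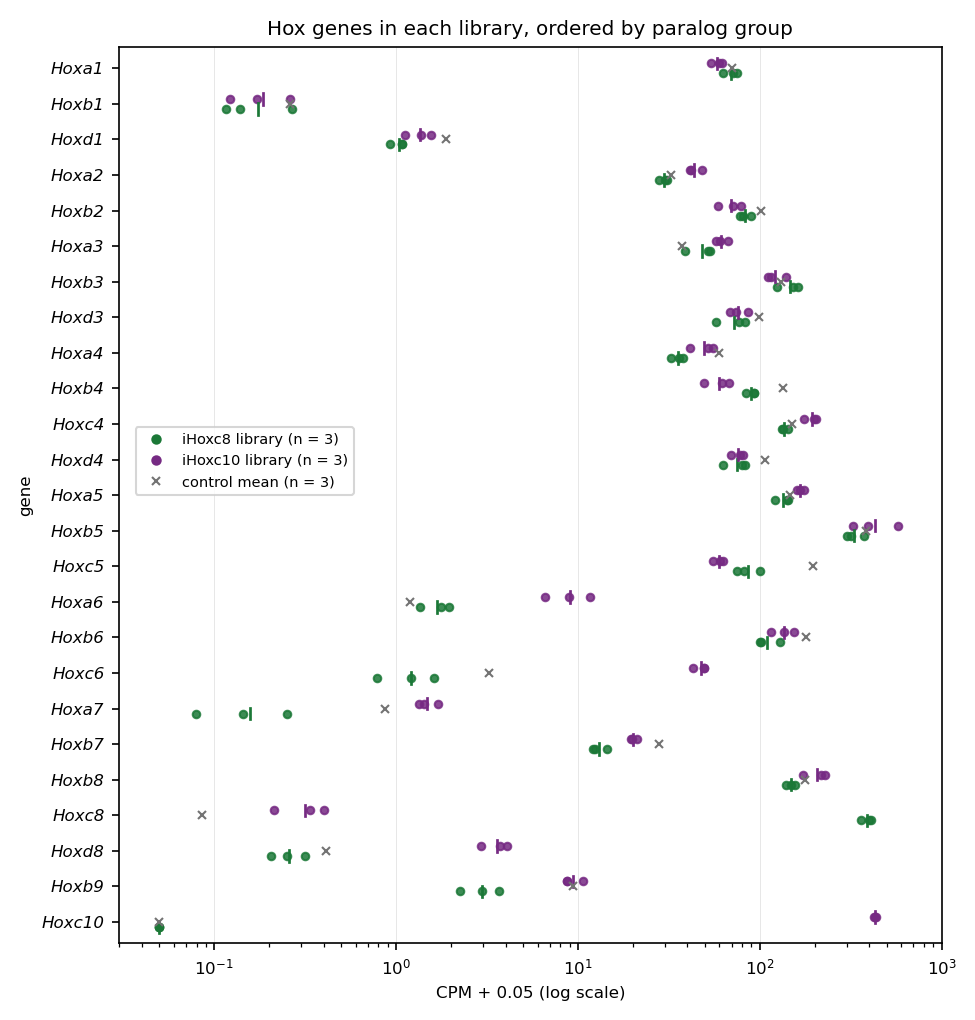
Points are CPM plus 0.05 on a log axis of the 25 Hox genes with a mean of at least 0.1 CPM in iHoxc8 or iHoxc10 neurons, 1 point per library with a bar at the mean of 3, and crosses are control means. Purple iHoxc10 points lie to the right of green iHoxc8 points for Hoxa6, Hoxc6, Hoxa7, Hoxd8, Hoxb9 and Hoxc10, and most genes of the Hox1 to Hox5 groups lie close together.

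Outside the Hox clusters, Stra6l had the largest fold change among genes with at least 1 CPM. Stra6l, a membrane receptor for retinol-binding protein (chromosome 4, 45824293 to 45887010, mm10), was at 0.118, 0.0334 and 0.219 CPM in iHoxc8 and at 24.4, 25.0 and 24.1 CPM in iHoxc10 neurons. In iHoxc8 it stayed near the limit of 3 counts, with at most 7 counts, and the log2 fold change was 7.57 (standard error 0.34, adjusted p = 1.78e-12). It was at a mean of 59.8 CPM in iHoxc9 neurons, so that iHoxc10 was the lower of those 2 groups within their run, and at 0.0731 CPM in control. Pde11a, a phosphodiesterase of cyclic nucleotides, was at 0, 0.134 and 0.0313 CPM in iHoxc8 and at 2.66, 2.47 and 2.47 CPM in iHoxc10 (log2 fold change 5.48, adjusted p = 2.16e-07). Foxd3, a transcription factor of V1 interneurons and neural crest, was at 0.0887, 0.0668 and 0 CPM in iHoxc8, within 3 counts per library, and at 1.33, 1.36 and 1.22 CPM in iHoxc10 (adjusted p = 5.49e-05). Sp5, a transcription factor that responds to Wnt signals, was at 0.266, 0.234 and 0.0938 CPM in iHoxc8 and at 2.42, 3.90 and 2.71 CPM in iHoxc10 (log2 fold change 3.90, adjusted p = 6.23e-05). Its iHoxc10 over iHoxc9 value within the run was 3.73 (adjusted p = 5.4e-05). The remaining 3 genes among the 12 with the largest fold changes were Adamts19, a secreted metalloprotease (4.20), Cdh23, a cadherin of hair cell tip links (3.89), and Thbs2, a matrix glycoprotein (3.596). These 3 had means of 1.81 to 3.53 CPM in iHoxc10, and the rule that picked the 12 genes asked for groups that do not overlap.

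Several more abundant genes called higher in iHoxc10 fall outside the rule for named genes and were chosen after their values were seen. Smoc1, a secreted matrix protein, was at 11.5, 11.2 and 10.6 CPM in iHoxc8 and at 106.8, 88.3 and 106.3 CPM in iHoxc10 (log2 fold change 3.18, standard error 0.37, adjusted p = 7.17e-06). Draxin, a secreted axon guidance protein, was at 17.6 to 21.5 CPM in iHoxc8 and 89.4 to 99.7 CPM in iHoxc10 (log2 fold change 2.27, adjusted p = 2.77e-10). Cntnap2, a neuronal cell adhesion protein, was at 12.04 to 12.4 CPM in iHoxc8 and 68.4 to 80.9 CPM in iHoxc10 (log2 fold change 2.59, adjusted p = 1.07e-10). Sorcs3, a sorting receptor, was at 4.01 to 4.79 CPM in iHoxc8 and 32.8 to 55.8 CPM in iHoxc10 (log2 fold change 3.28, adjusted p = 3.74e-08). In each of these 4 genes every iHoxc10 library was above every iHoxc8 library, and the control means were 9.11, 26.9, 8.51 and 2.57 CPM.

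**Figure D3:**
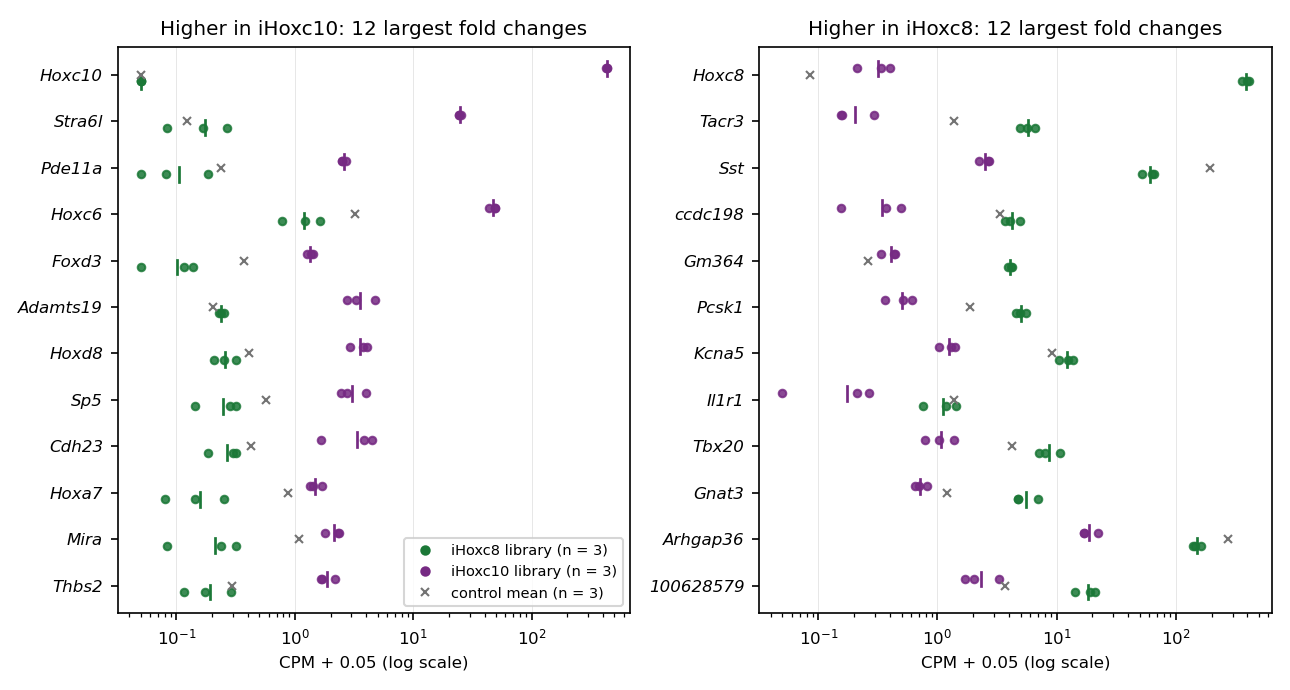
Each row is a gene and each point a library, with CPM plus 0.05 on a log axis, bars at the mean of 3 libraries and crosses at the control mean. The left panel gives the 12 genes with the largest fold changes higher in iHoxc10 and the right panel those higher in iHoxc8 by the rule for named genes, which takes only genes whose groups do not overlap.

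Genes higher in iHoxc8 neurons included peptide, receptor and channel genes. Sst, the neuropeptide somatostatin (chromosome 16, 23889573 to 23891342, mm10), was at 52.4, 63.7 and 66.3 CPM in iHoxc8 and at 2.66, 2.19 and 2.59 CPM in iHoxc10. The groups were far apart (log2 fold change -4.61, standard error 0.22, adjusted p = 4.82e-12). The value over iHoxc9 in the shared run had the opposite sign, 2.24 (adjusted p = 1.13e-05). Control neurons had more of it than either, with a mean of 195.1 CPM, and both groups were lower than control, by log2 fold changes of -1.68 in iHoxc8 and -6.30 in iHoxc10. Tacr3, the receptor for neurokinin B, was at 6.57, 5.64 and 4.88 CPM in iHoxc8 and at 0.105, 0.107 and 0.243 CPM in iHoxc10 (log2 fold change -5.22, standard error 0.70, adjusted p = 3.53e-05). Arhgap36, a RhoGAP family protein that inhibits protein kinase A, was at 145.6, 164.1 and 139.0 CPM in iHoxc8 and at 17.0, 16.8 and 22.2 CPM in iHoxc10 (log2 fold change -3.0025, standard error 0.26, adjusted p = 8.9e-08). Its control mean was 273.3 CPM, and within their run iHoxc10 was also below iHoxc9, by -1.54 (adjusted p = 0.00017).

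Kcna5, a voltage-gated potassium channel, was at 10.5, 12.5 and 13.7 CPM in iHoxc8 and at 1.36, 1.25 and 0.972 CPM in iHoxc10 (log2 fold change -3.34, adjusted p = 1.41e-07). Its log2 fold change from control was 0.42 in iHoxc8 (adjusted p = 0.342) and -2.93 in iHoxc10 (3.75e-07). Pcsk1, an enzyme that cleaves prohormones, was at 4.50 to 5.47 CPM in iHoxc8 and 0.315 to 0.567 CPM in iHoxc10 (log2 fold change -3.46, adjusted p = 1.87e-05). Tbx20, a T-box transcription factor of cranial motor neurons and heart, was at 7.11 to 10.5 CPM in iHoxc8 and 0.729 to 1.33 CPM in iHoxc10 (log2 fold change -3.06, adjusted p = 3.07e-07). Gnat3, a G protein subunit of taste cells, was at 4.70 to 6.97 CPM in iHoxc8 and 0.595 to 0.770 CPM in iHoxc10, whereas its mean in iHoxc9 was 13.9 CPM. For the other named genes of this direction, ccdc198 had a log2 fold change of -3.86, Gm364 of -3.49 and Il1r1, a receptor for interleukin-1, of -3.08. For Gm364 it was iHoxc8 that differed from control, by 4.21 (adjusted p = 1.15e-08), against 0.73 in iHoxc10 (0.213). Il1r1 did not pass in 8 of 13 alternative settings, with an adjusted p of up to 0.0442. Genes at higher levels, chosen after their values were seen, were Cbln1, a secreted synapse organiser, at 114.0 to 145.9 CPM in iHoxc8 and 25.0 to 34.04 CPM in iHoxc10 (log2 fold change -2.10, adjusted p = 4.14e-06), and Pmp22, a myelin protein, at 13.5 to 16.1 and 1.76 to 2.63 CPM (log2 fold change -2.84, adjusted p = 1.4e-08). From control, Cbln1 changed by -0.30 in iHoxc8 (adjusted p = 0.457) and -2.40 in iHoxc10 (3.11e-07). Pmp22 changed by -0.18 in iHoxc8 (0.61) and -3.02 in iHoxc10 (2.64e-09). Tbx2, another T-box factor, was at 11.1 to 12.4 CPM in iHoxc8 and 0.980 to 2.29 CPM in iHoxc10 (log2 fold change -2.95, adjusted p = 2.38e-07).

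Several genes of limb-innervating neurons were higher in iHoxc10, and 2 genes shared by all spinal motor neurons passed the test. Of 17 general motor neuron genes, Ret was higher in iHoxc10 and Isl2 lower, against 1.67% and 1.26% of all genes. At an unadjusted p under 0.05, 5 were higher and 6 lower in iHoxc10, DESeq2 passed 2 and 3, and the groups did not overlap in 12 of the 17, against 25.8% of all genes. The iHoxc10 over iHoxc9 values within the run were -2.64 for Isl2, 3.08 for Aldh1a2 and 1.33 for Gfra1. Ret, the signalling receptor for GDNF family ligands, was at 157.5, 144.4 and 142.0 CPM in iHoxc8 and at 299.2, 266.0 and 268.2 CPM in iHoxc10 (log2 fold change 0.91, standard error 0.12, adjusted p = 4.65e-05). Isl2, a LIM homeodomain factor of young motor neurons, was at 22.8, 21.3 and 18.6 CPM in iHoxc8 and at 6.09, 7.13 and 9.12 CPM in iHoxc10 (log2 fold change -1.49, standard error 0.23, adjusted p = 0.000212). The other markers gave values that did not pass. These were 0.52 for Mnx1 (adjusted p = 0.0653), -0.23 for Isl1 (0.683), -0.82 for Lhx3 (0.0173) and 0.61 for Chat, the acetylcholine-synthesising enzyme (0.124). Mnx1 and Lhx3 passed with DESeq2 and with the 15 day 4 libraries, Mnx1 higher and Lhx3 lower in iHoxc10, and Lhx3 passed also without iHoxc10 replicate 3.

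Of 23 genes of the LMC and its motor pools, 6 passed in the direction of iHoxc10, against 1.67% of all genes, and Cdh20 in that of iHoxc8, against 1.26%. Gfra1, the co-receptor with which Ret binds GDNF, was at 32.8, 31.0 and 37.1 CPM in iHoxc8 and at 171.9, 131.9 and 158.5 CPM in iHoxc10. Its log2 fold change was 2.20 (standard error 0.15, adjusted p = 2.22e-09), and its log2 fold change from control was -0.11 in iHoxc8 (adjusted p = 0.719) and 2.09 in iHoxc10. Lhx1, the LIM factor of the lateral part of the LMC that is also found in several interneuron classes, was at 16.6, 13.5 and 15.1 CPM in iHoxc8 and at 77.1, 66.2 and 55.3 CPM in iHoxc10 (log2 fold change 2.13, standard error 0.15, adjusted p = 2e-09). Its iHoxc10 over iHoxc9 value was 4.10, and Lhx1os, the RNA gene beside it, was chosen after its values were seen and was at 6.07 to 7.55 and 23.8 to 32.8 CPM. Aldh1a2, which makes retinoic acid in limb motor neurons, was at 73.5, 93.9 and 52.4 CPM in iHoxc8 and at 203.3, 184.8 and 163.1 CPM in iHoxc10 (log2 fold change 1.33, standard error 0.20, adjusted p = 0.000217). Foxp1, the factor that defines the LMC, was at 206.0, 135.7 and 191.6 CPM in iHoxc8 and at 274.3, 245.0 and 191.3 CPM in iHoxc10, where the groups overlapped and the test was not passed (log2 fold change 0.41, standard error 0.18, adjusted p = 0.195). Both lines were above control for Foxp1, by 1.63 in iHoxc8 (adjusted p = 1.08e-05 by edgeR) and 2.05 in iHoxc10 (6.21e-08). The same held for Aldh1a2, by 1.33 in iHoxc8 (adjusted p = 0.000614) and 2.66 in iHoxc10 (1.6e-08). The remaining genes that passed in this list were Nrp1, a semaphorin receptor (1.08), Cdh8, a cadherin (1.66), and Ephb1, an ephrin receptor (0.81). Of 12 genes of the median, hypaxial and preganglionic columns, none passed by edgeR, 6 had an unadjusted p under 0.05 and 4 passed with DESeq2.

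**Figure D4:**
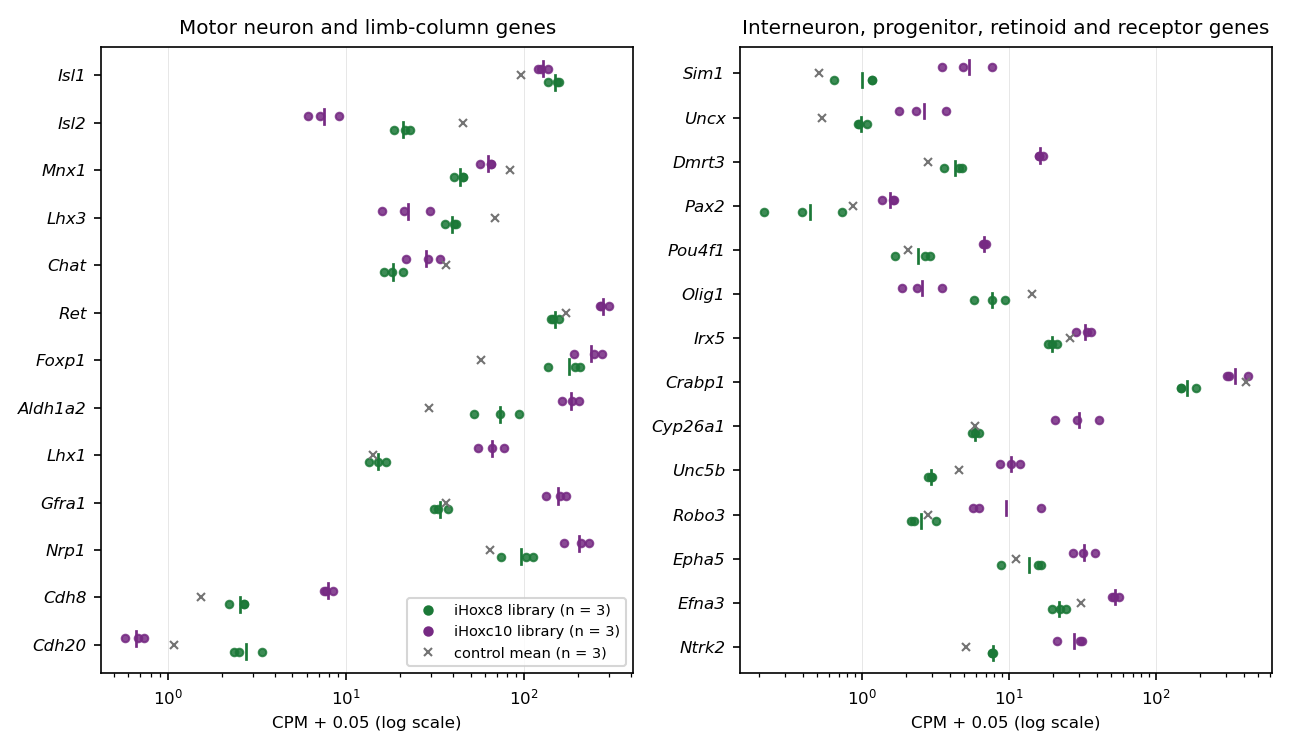
Points are CPM plus 0.05 on a log axis, 1 per library with a bar at the mean of 3, for genes of motor neurons and limb columns on the left and for interneuron, progenitor, retinoid, guidance and neurotrophin receptor genes on the right, with crosses at control means. For Lhx1, Gfra1 and Cyp26a1 the iHoxc8 points lie at the control mean and the iHoxc10 points above it, while Foxp1 and Isl1 points of both groups meet.

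Interneuron genes were low in both groups and, where they passed, higher in iHoxc10. Of 18 genes of the ventral V0 to V3 classes, 5 passed in this direction (1.67% of all genes) and none in the other by edgeR, where 2 had an unadjusted p under 0.05 and DESeq2 passed 1. The count was 3 without iHoxc8 replicate 2 or without iHoxc10 replicate 2. Sim1, the factor of V3 interneurons, was at 1.12, 0.601 and 1.13 CPM in iHoxc8 and at 4.87, 7.63 and 3.44 CPM in iHoxc10 (log2 fold change 2.47, standard error 0.32, adjusted p = 2.75e-05). Sim1 was lower in iHoxc10 than in iHoxc9 within their run, by -1.68 (adjusted p = 0.000295). En1, the marker of V1 interneurons, was at 0.0938 to 0.405 CPM over the 6 libraries and did not pass (0.77, adjusted p = 0.483). The summed level of these 18 genes was 200.3 to 210.8 CPM in iHoxc8 and 158.1 to 189.5 CPM in iHoxc10, of which Foxp4, Sox21 and Lhx3 made up most, so that the sum ran opposite to the genes that passed. Of 20 genes of dorsal interneuron classes, Dmrt3, Pax2 and Pou4f1 passed, all higher in iHoxc10 (1.67% of all genes), and at an unadjusted p under 0.05 there were 6 higher in iHoxc10 and 4 higher in iHoxc8. Pax2 did not pass in 5 of 13 alternatives, among them those without iHoxc8 replicate 2 or 3 or iHoxc10 replicate 2 or 3 (adjusted p up to 0.0551). Dmrt3, a factor of commissural interneurons, was at 3.58, 4.78 and 4.54 CPM in iHoxc8 and at 16.1, 16.01 and 17.1 CPM in iHoxc10 (log2 fold change 1.93, standard error 0.19, adjusted p = 4.67e-07).

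Cell cycle genes that passed were lower in iHoxc10 neurons, whereas few progenitor genes passed. Of 33 cell cycle genes, 9 passed in the direction of iHoxc8 (1.26% of all genes) and none in that of iHoxc10 by edgeR, and their median log2 fold change was -0.65 against -0.02 over all genes. By an unadjusted p under 0.05, 24 were higher in iHoxc8 and 2 in iHoxc10, and DESeq2 passed 12 and 0. The count of 9 rested on all libraries, since it was 5, 4, 1 and 3 without iHoxc8 replicate 2, iHoxc8 replicate 3, iHoxc10 replicate 1 or iHoxc10 replicate 2. Cdk1, the kinase that drives entry into mitosis, was at 51.9, 66.9 and 54.9 CPM in iHoxc8 and at 27.8, 33.0 and 35.6 CPM in iHoxc10 (log2 fold change -0.85, standard error 0.15, adjusted p = 0.000785), but did not pass without iHoxc10 replicate 1. Ccne2, a cyclin of the start of S phase, was at 9.32, 11.4 and 9.41 CPM in iHoxc8 and at 3.47, 3.87 and 2.59 CPM in iHoxc10 (log2 fold change -1.60, adjusted p = 0.001). It did not pass without iHoxc10 replicate 3. The summed level of the 33 genes was 3054 to 3310 CPM in iHoxc8, 2194 to 2758 CPM in iHoxc10 and 2836 to 4095 CPM in control. Mki67 itself was at 119.2, 68.2 and 152.1 CPM in iHoxc8 and at 77.3, 59.0 and 70.1 CPM in iHoxc10, with overlapping groups. Of 25 genes of ventral progenitors, Olig1, a motor neuron progenitor factor, was higher in iHoxc8 (log2 fold change -1.59, adjusted p = 0.00373, up to 0.0321 with 1 library left out), and Irx5 and Dbx1 were higher in iHoxc10. Irx5 did not pass without iHoxc10 replicate 1 (adjusted p up to 0.0128). Olig2, at 39.3 to 62.8 CPM in iHoxc8 and 23.3 to 38.3 CPM in iHoxc10, did not pass (-0.72, adjusted p = 0.122). Among 24 genes of neuronal differentiation that could be tested, Neurog3, Ebf3 and Ebf1 were higher in iHoxc10 (1.67% of all genes), with log2 fold changes of 1.64, 1.39 and 1.14. Neurog3 did not pass without iHoxc8 replicate 1, iHoxc8 replicate 3 or iHoxc10 replicate 2 (adjusted p up to 0.0215), and Ebf3 did not without both iHoxc8 replicate 2 and iHoxc10 replicate 3 (0.0172).

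Of 20 genes that handle retinoic acid, the signal that was added to every culture, Stra6l, Cyp26a1, Aldh1a2 and Crabp1 were higher in iHoxc10 (1.67% of all genes) and Rxrg, a retinoid receptor, was lower (1.26%). Cyp26a1, the enzyme that breaks retinoic acid down, was at 6.27, 5.81 and 5.57 CPM in iHoxc8 and at 20.5, 41.4 and 29.0 CPM in iHoxc10. Its log2 fold change was 2.36 (standard error 0.22, adjusted p = 2.32e-07), its control mean was 5.87 CPM, and iHoxc9 neurons had more, with a mean of 131.1 CPM. Crabp1, which binds retinoic acid in the cytoplasm, was at 149.6, 189.1 and 148.8 CPM in iHoxc8 and at 317.7, 306.3 and 424.1 CPM in iHoxc10 (log2 fold change 1.10, standard error 0.19, adjusted p = 0.000685), and control had a mean of 414.3 CPM. The 4 genes higher in iHoxc10 passed in every leave-one-out setting, whereas Rxrg passed in none of them (log2 fold change -0.75, adjusted p = 0.00722 with all libraries). Cyp26b1, a related enzyme, had means of 470.5 CPM in iHoxc8 and 278.0 CPM in iHoxc10 and did not pass (-0.76, adjusted p = 0.0804).

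Several receptors that guide axons or bind growth factors were higher in iHoxc10. Of 29 Eph, ephrin, Slit, Robo and netrin genes, 6 were higher in iHoxc10 (1.67% of all genes) and none was higher in iHoxc8 by edgeR, by DESeq2 or at an unadjusted p under 0.05. Unc5b, a netrin receptor, was at 2.93, 2.77 and 2.97 CPM in iHoxc8 and at 11.9, 10.4 and 8.71 CPM in iHoxc10 (log2 fold change 1.84, standard error 0.22, adjusted p = 7.17e-06). Efna3, an ephrin ligand, was at 22.2, 24.4 and 19.7 CPM in iHoxc8 and at 55.9, 51.9 and 50.4 CPM in iHoxc10 (log2 fold change 1.26, adjusted p = 0.000301). Robo3, a receptor of commissural axons, was at 2.10 to 3.17 CPM in iHoxc8 and at 6.23, 16.6 and 5.71 CPM in iHoxc10, where replicate 2 was the highest. Robo3 did not pass without iHoxc10 replicate 2, iHoxc8 replicate 2 or iHoxc8 replicate 3 (adjusted p up to 0.0369). Of 22 semaphorins, plexins and neuropilins, Plxnc1 (log2 fold change 1.72) and Nrp1 were higher in iHoxc10 (1.67% of all genes). Sema3d, a secreted ligand, was higher in iHoxc8 (1.26% of all genes), with a log2 fold change of -1.83 (adjusted p = 0.000323). Of 18 neurotrophic receptors and ligands, Gfra1, Ntrk2, Gfra2 and Ret were higher in iHoxc10 (1.67% of all genes) and Ntf3 in iHoxc8 (1.26%). Ntrk2, the receptor for BDNF, was at 7.81, 7.68 and 7.66 CPM in iHoxc8 and at 31.5, 30.4 and 21.4 CPM in iHoxc10 (log2 fold change 1.85, standard error 0.21, adjusted p = 3.59e-06), and its mean in iHoxc9 was 79.3 CPM. Ntf3, which encodes neurotrophin-3, was at 9.23 to 14.5 CPM in iHoxc8 and 3.85 to 5.48 CPM in iHoxc10 (log2 fold change -1.38, adjusted p = 0.000605). Among 23 cadherins and protocadherins the called genes were all higher in iHoxc8 (0.272% of all genes), namely Cdh7 (-2.95), Cdh1 (-2.28) and Cdh20 (-2.13), while Cdh8 passed in the direction of iHoxc10 (1.67% of all genes). Cdh1 did not pass without iHoxc8 replicate 3, iHoxc10 replicate 1 or iHoxc10 replicate 2 (adjusted p up to 0.0257).

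**Figure D5:**
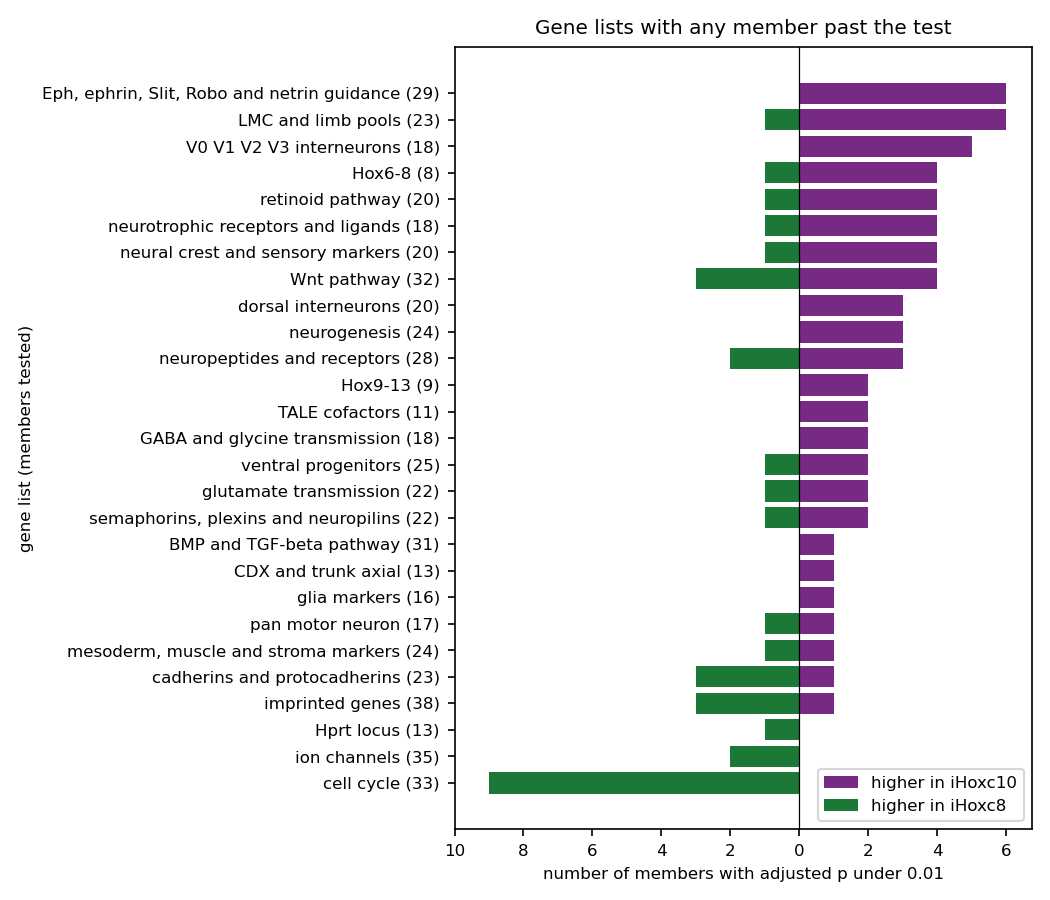
Bars give, for each gene list with any member past the test, the number of members with an adjusted p under 0.01, to the right for genes higher in iHoxc10 and to the left for genes higher in iHoxc8, with the number of members tested in parentheses. The cell cycle list has 9 members to the left and none to the right, and the Eph, ephrin, Slit, Robo and netrin list has 6 to the right and none to the left.

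Neuropeptides differed in both directions. Of 28 peptide and peptide receptor genes tested, Cartpt, Pnoc and Npy were higher in iHoxc10 (1.67% of all genes) and Sst and Sstr2 were higher in iHoxc8 (1.26%). The count of 3 was 1 without iHoxc8 replicate 1, iHoxc8 replicate 3 or iHoxc10 replicate 2, and that of 2 was 1 without iHoxc8 replicate 2, iHoxc8 replicate 3, iHoxc10 replicate 1 or iHoxc10 replicate 3. Cartpt, which encodes the CART peptides, was at 0.680, 1.00 and 0.876 CPM in iHoxc8 and at 5.74, 6.56 and 4.70 CPM in iHoxc10 (log2 fold change 2.73, standard error 0.25, adjusted p = 2.06e-07). Among GABA and glycine genes, Slc32a1, the vesicular transporter of inhibitory transmitters, was chosen after its values were seen. It was at 0.118 to 0.156 CPM in iHoxc8 and 0.560 to 0.860 CPM in iHoxc10 (log2 fold change 2.31, standard error 0.46, adjusted p = 0.00269). The control mean of Slc32a1 was 0.655 CPM. Its log2 fold change from control was -2.23 in iHoxc8 (adjusted p = 0.0062) and 0.08 in iHoxc10 (0.953). None of the 18 genes of this list passed in either direction without iHoxc8 replicate 1, 2 or 3 or without iHoxc10 replicate 2. In 22 glutamate genes, Grik3 (1.12) and Grm8 (1.87) were higher in iHoxc10 (1.67% of all genes) and Grin2a (-1.40) in iHoxc8 (1.26%), and of these only Grik3 passed in all 13 alternatives. Of 35 ion channel genes, Kcnj6 and Kcnip4, both under 1 CPM on average, were higher in iHoxc8 (1.26% of all genes). Neither passed without iHoxc10 replicate 1 or without iHoxc10 replicate 2. At an unadjusted p under 0.05, 8 of the 35 channel genes were higher in iHoxc10 and 3 in iHoxc8, and DESeq2 passed 2 in each direction. The median log2 fold change of these 35 genes was 0.38, toward iHoxc10.

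In the signalling pathways, Wnt genes were split. Of 32 Wnt pathway genes, Rspo2, Rspo1, Fzd10 and Axin2 were higher in iHoxc10 (1.67% of all genes) and Wnt5a, Wnt5b and Fzd1 were higher in iHoxc8 (1.26%). The first count was 1 to 2 with any library left out, whereas the second was 2 to 3. Wnt5a, a ligand of noncanonical Wnt signalling, was at 14.2, 9.85 and 15.1 CPM in iHoxc8 and at 5.08, 6.20 and 3.24 CPM in iHoxc10 (log2 fold change -1.43, standard error 0.21, adjusted p = 9.16e-05). Rspo2, which amplifies Wnt signals, was at 0.156 to 0.300 CPM in iHoxc8 and 0.972 to 2.10 CPM in iHoxc10 (log2 fold change 2.73, adjusted p = 8.88e-05). Of 31 BMP and TGF-beta genes, Bmp7 was higher in iHoxc10 (0.89, adjusted p = 0.00632) and did not pass with any library left out. This 1 gene is 3.23% of the list, near the 2.93% of all genes that passed in either direction. None of 13 Hedgehog and 24 FGF pathway genes passed by edgeR, with 5 and 8 at an unadjusted p under 0.05, and DESeq2 passed 2 of each.

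Some lists were included as checks of the lines and of other cell types. Hprt, the gene that holds the transgene, was at 28.9, 33.3 and 35.3 CPM in iHoxc8 and at 17.7, 16.9 and 19.6 CPM in iHoxc10 (log2 fold change -0.85, standard error 0.16, adjusted p = 0.0018), where control was at a mean of 1.61 CPM. Without iHoxc8 replicate 3, iHoxc10 replicate 1 or iHoxc10 replicate 2 it did not pass (adjusted p up to 0.0206). The other 12 genes around it that could be tested did not pass by edgeR, and DESeq2 passed 3 of the 13, 1 higher in iHoxc10 and 2 higher in iHoxc8. Of 38 imprinted genes, Dlk1 was higher in iHoxc10 (1.67% of all genes), at 46.7 to 50.3 against 11.95 to 14.4 CPM (log2 fold change 1.90, adjusted p = 0.00256), and Cobl, Dcn and Ddc were higher in iHoxc8 (1.26%). Dlk1 did not pass without iHoxc8 replicate 1, iHoxc8 replicate 3 or iHoxc10 replicate 1 (adjusted p up to 0.0245), and Cobl and Dcn did not without iHoxc8 replicate 2, iHoxc10 replicate 1 or iHoxc10 replicate 3 (up to 0.0461 and 0.0689). Leaving out 1 library gave 0 to 2 genes in the first and 1 to 3 in the second direction. None of the 13 mitochondrially encoded genes passed by edgeR or DESeq2, with 3 at an unadjusted p under 0.05.

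Markers of other cell types were measured by their sums and their counts. The summed level of 26 mesoderm, muscle and stroma genes was 11.9 to 14.5 CPM in iHoxc8 and 11.0 to 12.6 CPM in iHoxc10, and that of 15 blood and endothelium genes was 1.54 to 3.03 and 1.79 to 2.15 CPM. Of the mesoderm genes, Meox1 was higher in iHoxc10 (log2 fold change 3.32, adjusted p = 0.000225) and Tagln was higher in iHoxc8 (-2.31, adjusted p = 0.0024), and none of the 14 blood and endothelium genes tested passed by edgeR or DESeq2 or had an unadjusted p under 0.05. Of 13 Cdx and trunk genes, Sp5 was higher in iHoxc10 (1.67% of all genes). Endoderm and floor plate genes summed to 52.2 to 64.3 CPM in iHoxc8 and 28.2 to 45.8 CPM in iHoxc10, and none of 20 tested passed by edgeR, with 8 at an unadjusted p under 0.05 and 1 passed by DESeq2. Genes of neural crest and sensory neurons summed to 254.3 to 278.2 CPM in iHoxc8 and 197.9 to 211.6 CPM in iHoxc10, a sum that holds the motor neuron gene Isl1 as its largest member. Of 20 such genes, Foxd3, Tfap2b, Prrxl1 and Pou4f1 were higher in iHoxc10 (1.67% of all genes) and Tfap2a was higher in iHoxc8 (1.26%), all but Pou4f1 at means under 1.5 CPM. Without iHoxc8 replicate 3 the count of 4 was 2. The part of such cells in the results above was not tested. Of 25 stress and immediate early genes and 19 cholesterol and hypoxia genes, none passed by edgeR or DESeq2, with 3 and 7 at an unadjusted p under 0.05. None of 18 pluripotency genes tested passed by either tool, with 3 at an unadjusted p under 0.05. The 16 glia genes summed to 280.9 to 334.8 CPM in iHoxc8 and 350.7 to 403.2 CPM in iHoxc10, and of these Mbp was higher in iHoxc10 (0.79, adjusted p = 0.00239, up to 0.0409 in the alternatives).

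Lars2, the mitochondrial leucyl-tRNA synthetase, was chosen after its values were seen because its counts were large. Lars2 (chromosome 9, 123366927 to 123462675, mm10) was at 2310, 2436 and 1776 CPM in iHoxc8 and at 296.0, 314.5 and 293.2 CPM in iHoxc10 (log2 fold change -2.85, standard error 0.41, adjusted p = 8.88e-05). The means were 504.2 CPM in control and 436.2 CPM in iHoxc9, so that the 3 iHoxc8 libraries, which are also those of 1 sequencing run, held the high values. Its value over iHoxc9 was -0.53 (adjusted p = 0.531). The 3 called features whose IDs could not be matched to a symbol moved the same way and by similar amounts. Their log2 fold changes were -2.99 (ID 100628579), -2.91 (ID 100628626) and -2.80 (ID 19791). Lars2 also varied widely within control, from 225.8 to 718.0 CPM. Lars2 and these 3 features are among the 17 genes of at least 10 CPM called higher in iHoxc8. Whether the reads counted for Lars2 come from its mRNA was not tested. Among them, the feature with the ID 100628579 was at 19.2, 21.1 and 14.3 CPM in iHoxc8 and at 1.65, 3.22 and 1.99 CPM in iHoxc10, and that with the ID 19791 was at 2012, 1818 and 1400 CPM in iHoxc8 and at 173.6, 354.1 and 223.4 CPM in iHoxc10. For Lars2 and these features too, the sequencing run cannot be told apart from the induced gene.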

How the data were processed

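RNA was measured in 18 libraries, of which the 3 iHoxc8 and 3 iHoxc10 libraries are compared here. Per the study's methods and the labels, libraries were made with a stranded mRNA kit, sequenced as single-end reads, aligned to mm10 with STAR 2.7.0c and counted per RefSeq gene with featureCounts, and rows with the same Entrez ID were merged. The strand setting of the counting is not given in the sources used here. The deposited values are raw counts per gene for 27179 Entrez IDs, of which 25275 had a symbol in RefSeq (GRCm38.p6), and all 18 count columns were used. Spike-in counts were not analysed here.

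The 20944 genes detected by 1 count or more in some iHox library were fitted with edgeR 4.0.16 in R 4.3.3 (TMM normalization, quasi-likelihood test, a term per group over all 18 libraries). The contrast was iHoxc10 minus iHoxc8, and standard errors are the fold change divided by the root of the F statistic. The thresholds are those of the study. The filter of 1 count was set here, since the count behind the study's own filter is not given in the sources used here. P-values measure the spread between these libraries. CPM values use TMM library sizes. DESeq2 1.42.0, its size factors, a filter of 10 counts in 3 libraries, fits on 6 or 15 libraries, a replicate block and leaving out each library were alternatives. On simulated counts of 20462 genes for this contrast, edgeR called 100% of genes set to a log2 change of 3, and of genes set to 1.5 it passed 98% by adjusted p and called 1%. The changed genes were drawn only from genes above a set mean level, and no library was made to stand apart. These shares therefore do not apply to genes at low levels, and only 37 of the 137 called genes reached a mean of 10 CPM.

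Named genes were every Hox gene, the 12 called genes with the largest fold change in each direction at 1 CPM or more with groups that do not overlap, up to 4 members of each list that passed at 1 CPM or more, and column-defining genes whatever their p. The members and lists were chosen with earlier results of these data known. Lists were not tested, and their counts of genes past adjusted p are to be read against 1.67% of all genes higher in iHoxc10 and 1.26% higher in iHoxc8. Results for some genes are not reported here.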

Additional observations from a re-analysis of the deposited data

Results flagged for a closer look

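Hoxc6 and Cartpt differed from control in opposite directions in the 2 lines, and the difference between the lines was itself tested. Hoxc6 was lower than control in iHoxc8 neurons (log2 fold change -1.47, standard error 0.29, adjusted p = 0.00458) and higher in iHoxc10 neurons (3.88, standard error 0.26, adjusted p = 8.43e-10). The difference between the lines was 5.342 on the log2 scale (adjusted p = 2.89e-11 by edgeR). Control neurons came from the line that carries the Hoxc6 transgene, without doxycycline, and had a mean of 3.18 CPM, so reads from that transgene and from the endogenous gene cannot be told apart there. Cartpt was lower than control in iHoxc8 (-1.28, standard error 0.26, adjusted p = 0.00532) and higher in iHoxc10 (1.46, standard error 0.23, adjusted p = 9.07e-05). The difference between the lines was 2.7329 on the log2 scale (adjusted p = 2.06e-07 by edgeR), and in iHoxc9 neurons, which shared a run with iHoxc10, the mean was higher still, at 9.79 CPM.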

How the results depend on the processing

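The number of called genes stayed within 1.5 times of 137 in every alternative with the same thresholds. It was 107 to 149 with 1 library left out (60 to 91 higher in iHoxc10 and 43 to 58 higher in iHoxc8) and 148 with DESeq2, which shared 132 of the 137. With a log2 fold change beyond 1, 400 genes were called, 233 higher in iHoxc10 and 167 higher in iHoxc8, by the construction of the threshold. The number of genes past adjusted p alone, 614, was 1173 with DESeq2, 1006 with the 15 day 4 libraries, 319 to 527 with 1 library left out and 338 without iHoxc8 replicate 2 and iHoxc10 replicate 3, a setting chosen after seeing the data. The cause was not tested beyond the smaller number of libraries. In that last setting 119 genes were called, of which 96 were shared with the 137. The log2 difference between induced Hoxc10 and Hoxc8 was 0.71 per kilobase of exon instead of 0.15, by the exon lengths used, and 0.09 to 0.18 with 1 library left out. Of 83 named genes that passed, 52 passed in all 13 alternatives and none reversed, and 6 of the 30 named genes that did not pass did so in an alternative. Of the 74 list counts, 47 moved by over 1.5 times in some alternative. Same-numbered libraries did not share their deviation from the group means in a uniform way (correlations of 0.46, -0.06 and -0.42 over 13001 genes), so no pairing by number was seen in these values. Libraries of different numbers gave correlations from -0.609 (iHoxc8 replicate 2 with iHoxc10 replicate 1) to 0.559 (iHoxc8 replicate 3 with iHoxc10 replicate 1). Because each deviation is taken from the mean of its own group, these correlations depend on each other. They therefore cannot show which libraries of the 2 lines, if any, belong together. With the replicate number as a block, 136 genes were called, 74 higher in iHoxc10 and 62 in iHoxc8, 129 of them shared, and 613 passed adjusted p alone. Depth limits statements on genes under about 0.1 CPM.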
